A study of Homo sapiens with 6 samples.

Results

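The 32 genes described here build sterols and fatty acids or control the genes that do, and they were taken from the count table by gene symbol. They are 32 of its 63643 rows, and 31 of them were among the 23109 genes with enough counts to be tested. RNA with a poly(A) tail was sequenced from HEK293T, a long-established line from human embryonic kidney, after deletion of GLO1, the glyoxalase that starts the main route by which methylglyoxal (MGO) is cleared. All 6 libraries carry this deletion: 3 come from cells given 60 µM MGO for 4 h (MGO group) and 3 from cells left untreated (Control group). MGO is a reactive dicarbonyl made as a by-product of glycolysis. The study asked whether the compound sets off the transcriptional program of the integrated stress response, and none of the 32 genes was its stated subject. The labels do not say how many clones of the deletion were used or whether each replicate was its own culture. The p-values therefore rest on the spread between these libraries, which may be technical. The MGO libraries are named with a number other than the dose in the protocol, and the labels leave it unexplained.

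Cholesterol is made from acetyl-CoA through mevalonate, isoprenoid diphosphates and squalene, and fatty acids are made from the same acetyl-CoA through malonyl-CoA. Both routes are driven by the sterol regulatory element-binding proteins (SREBPs), membrane-bound factors that SCAP escorts from the endoplasmic reticulum to the Golgi for cleavage when sterols are low and that INSIG proteins hold back when sterols are high. SREBP2, from SREBF2, is known mainly for cholesterol synthesis genes and SREBP1, from SREBF1, mainly for fatty acid synthesis genes.

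The libraries held between 117427883 and 157639431 counts, and levels are given as CPM, counts brought to a common library total, with library totals scaled by edgeR's trimmed mean of M values (TMM). Treatment went with a change in most of the transcriptome: 38.8% of tested genes were raised and 40.5% lowered at an adjusted p under 0.05 (edgeR's quasi-likelihood test), 79.3% in all, and in 81.5% the MGO and Control libraries did not overlap. The change followed transcript length. The median log2 fold change was 0.66 in genes with transcripts of 1000 to 1500 nt and -1.64 in those over 6000 nt. It also depended on scaling, since TMM factors were 0.815 to 0.858 in the MGO libraries and 1.186 to 1.214 in the Control libraries, and scaling by library size alone moved the median of all genes by -0.53. Each group below is therefore given also with library size alone, and with the trend over transcript length taken out for the median or the longest transcript of a gene. GLO1 itself was at 102 ± 4.54 CPM in MGO and 37.3 ± 0.885 CPM in Control (SD, n = 3, log2 fold change 1.45), and since the labels do not say which stretch was deleted these counts do not check the deletion. Of 6 markers of the line, KRT8 stood at 329 ± 7.27 CPM in Control and 981 ± 67.8 CPM in MGO, and PAX2 was low, at 6.59 ± 0.0889 CPM and 1.71 ± 0.164 CPM. KRT18 and VIM rose with KRT8, while CDH2 (184.5 CPM in Control, 71.4 CPM in MGO) and NEFM fell with PAX2. The median log2 fold change of the 6 was -0.24. Their summed level, in which KRT8 and VIM weigh most, was 1962 to 2202 CPM in MGO and 975 to 1016 CPM in Control. Summed markers of adipocytes stayed at 1.35 CPM or below in every library, those of blood cells at 0.809 CPM or below and those of beta cells at 2.37 CPM or below, with INS at 0 throughout. Hepatocyte markers summed to 0.232 to 0.264 CPM in Control, and MGO replicate 1 stood apart at 6.44 CPM, of which ALB made up 5.09 CPM; without that library no member other than SREBF1 and SCAP changed its call.

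Genes of cholesterol synthesis were mostly higher and genes of fatty acid synthesis mostly lower in MGO. Of the 17 tested cholesterol synthesis genes, 14 rose and 3 fell, where 38.8% of all tested genes rose and 40.5% fell, and their median log2 fold change was 1.04 against -0.02 over all genes tested. Of the 7 fatty acid synthesis genes, 1 rose, 5 fell and 1 was not called, with a median of -0.63. Over all members 16 rose, 12 fell and 3 were not called. A call in either direction was given to 28 of 31 tested members against 79.3% of all tested genes, and MGO and Control libraries did not overlap in the same number, against 81.5%. In bulk RNA, fewer cells with a transcript and less of it per cell cannot be told apart. The direction in fatty acid synthesis did not hold with the length trend taken out, where the median was 0.11 (median transcript) or 0.01 (longest transcript), while that of cholesterol synthesis was 0.74 under both and 0.51 with library size alone.

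**Figure D1:**
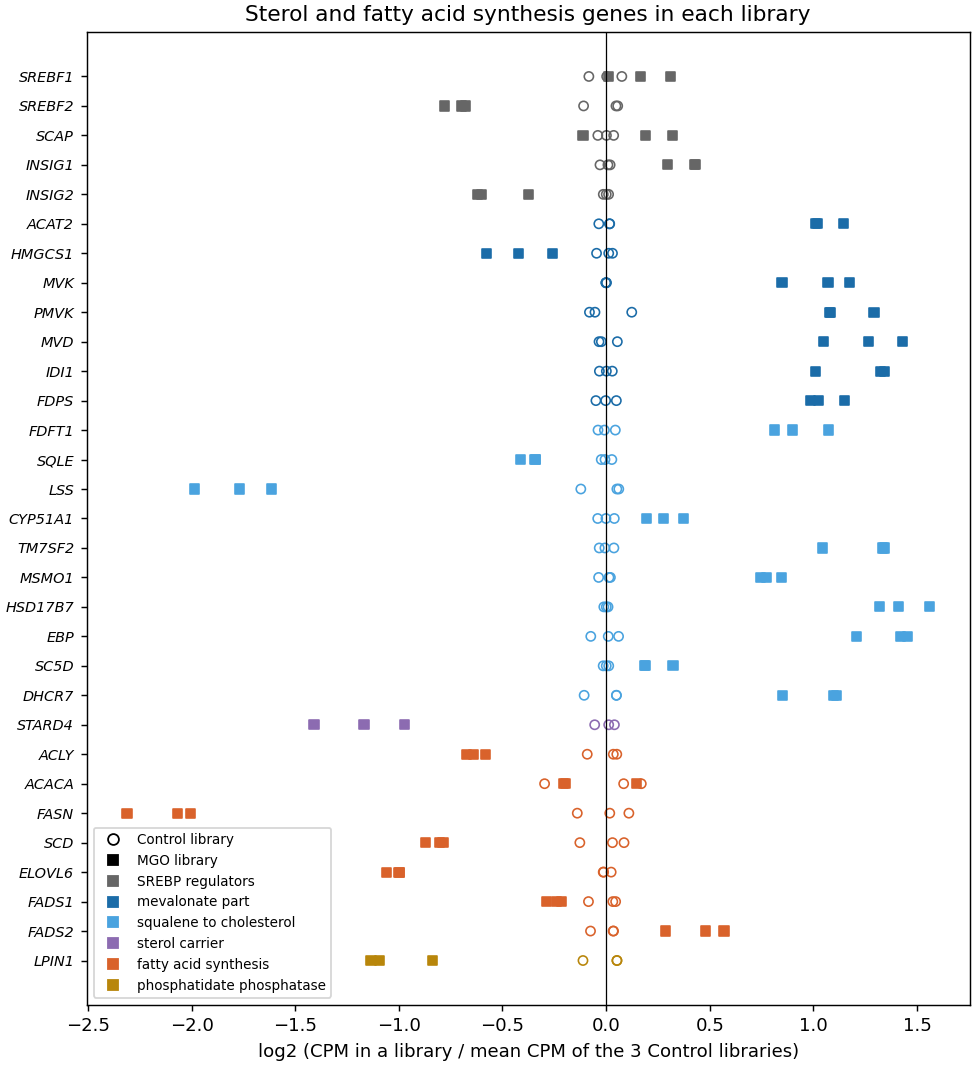
Level of each tested member in each of the 6 libraries, as the log2 ratio of its CPM to the mean of the 3 Control libraries; open circles are Control libraries, filled squares MGO libraries, and colours mark the gene groups. MGO squares of most cholesterol synthesis genes lie near 1, those of FASN below -2, and those of SREBF1, SCAP and ACACA overlap the Control circles.

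Summed over the listed genes, cholesterol synthesis RNA stood at 1595, 1709 and 1567 CPM in MGO replicates 1 to 3 and at 1001, 998.5 and 1008 CPM in Control replicates 1 to 3. Fatty acid synthesis RNA stood at 1128, 1217 and 1173 CPM in MGO and 2039, 2321 and 2255 CPM in Control. In Control the fatty acid genes together held more reads than the cholesterol genes in all 3 libraries, and in MGO they held fewer in all 3. This comparison is within libraries and so does not depend on scaling between them, although read counts weigh long transcripts more. The change between groups also followed transcript length, and the median transcript was 1987 nt in cholesterol synthesis and 4772 nt in fatty acid synthesis. How much of the crossing goes with length was not tested. The 5 regulators summed to 315.5 to 341 CPM in MGO and 363.5 to 391.2 CPM in Control.

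Among the regulators, SREBF2 and INSIG2 RNA fell, INSIG1 RNA rose, and SREBF1 and SCAP did not pass the test. SREBF2, the gene of SREBP2 (chromosome 22, 41833079 to 41907308, plus strand, on GRCh38), had 106, 112 and 113 CPM in MGO replicates 1 to 3 and 168, 187 and 188 CPM in Control replicates 1 to 3. All MGO libraries were below all Control libraries, a 1.65-fold fall (log2 fold change -0.72 ± 0.07, SE, adjusted p = 6.07e-07). With the length trend taken out it no longer fell. It was called as raised for the median transcript, at 0.33 (adjusted p = 0.000331), and not called for the longest, at 0.05 (adjusted p = 0.433). SREBF1, the gene of SREBP1, had 24.7, 30.4 and 27.6 CPM in MGO replicates 1 to 3 and 23.2, 25.9 and 24.6 CPM in Control replicates 1 to 3. The groups overlapped, and the log2 fold change was 0.17 ± 0.08 (SE, adjusted p = 0.0795). SCAP, the sterol-sensing escort, had 72.1, 88.9 and 97.3 CPM in MGO replicates 1 to 3 and 75.8, 79.9 and 78.0 CPM in Control replicates 1 to 3. MGO replicate 1 was the lowest of all 6 SCAP values and the other two MGO libraries the highest (log2 fold change 0.14 ± 0.09, adjusted p = 0.173). Values are in the order of replicates here and below. Without MGO replicate 1 both SREBF1 and SCAP passed as raised, at 0.25 and 0.26 (adjusted p = 0.00399 and 0.000603), and with library size alone both passed as lowered, at -0.36 and -0.385. With the length trend taken out both passed as raised, SREBF1 at 0.87 and 0.59 and SCAP at 0.78 and 0.62 (median and longest transcript), and upper quartile scaling also called both as raised, at 0.34 and 0.32. SREBF1 shares exon sequence with RAI1 on the other strand, which fell by 2.49 on the log2 scale.

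The INSIG genes encode the retention proteins, and INSIG1 is itself a known SREBP target. INSIG1 had 88.9, 89.4 and 81.3 CPM in MGO and 64.9, 67.1 and 66.6 CPM in Control. Its MGO values were all above its Control values (log2 fold change 0.39 ± 0.06, adjusted p = 9.68e-05), but with library size alone the value was -0.14. INSIG2 (chromosome 2, 118088452 to 118110997, plus strand) had 24.3, 20.8 and 20.5 CPM in MGO and 31.8, 31.2 and 31.5 CPM in Control. It fell 1.44-fold (log2 fold change -0.53 ± 0.08, adjusted p = 3.57e-05) and was the 1 regulator called in the same direction under TMM, library size alone and both length settings.

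Ratios of paired genes within a library do not depend on scaling between libraries. The SREBF1 to SREBF2 ratio of CPM was 0.234, 0.273 and 0.243 in MGO and 0.138, 0.138 and 0.131 in Control, a difference of 0.88 on the log2 scale. The INSIG1 to INSIG2 ratio was 3.66, 4.30 and 3.97 in MGO and 2.04, 2.15 and 2.12 in Control, a difference of 0.92. Neither ratio overlapped between groups, but an exact two-sided permutation test of 3 against 3 libraries cannot go below p = 0.1, which is the value for both, and adjustment over the 6 ratios tested leaves 0.1. Median transcript lengths are 4178 nt for SREBF1 and 5302.5 nt for SREBF2, and 2623 nt for INSIG1 and 1968.5 nt for INSIG2.

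In the mevalonate part, which runs from acetyl-CoA to farnesyl diphosphate, 6 of 7 genes rose by between 2.05-fold and 2.39-fold and HMGCS1 fell. These 6 were called as raised under TMM, library size alone and both length settings; over all genes with a length, 24.5% were. ACAT2, the cytosolic thiolase that joins acetyl-CoA units, had 263, 287 and 261 CPM in MGO and 131, 127 and 131 CPM in Control, with log2 fold change 1.06 ± 0.06 (adjusted p = 8.34e-09). Its exons overlap those of TCP1 and SOD2 on the other strand, with TCP1 at 0.70 and SOD2 at 0.10 on the log2 scale. Overlaps with genes on the other strand sum to 2996 nt, against 4299 exonic nt of ACAT2. TCP1 held a count equal to 355.6% of that of ACAT2, and SOD2 82.3%. With the strand setting of the counting not given, reads of these genes cannot be told apart, and the ACAT2 values are uncertain. HMGCS1, the synthase that makes HMG-CoA from the thiolase product (chromosome 5, 43289395 to 43313512, minus strand), went the other way, with 177, 158 and 142 CPM in MGO and 205, 216 and 213 CPM in Control. All 3 MGO values lay below the Control values (log2 fold change -0.41 ± 0.08, adjusted p = 0.000377), and with the length trend taken out the value was 0.04 for the median and -0.26 for the longest transcript.

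The kinases and the decarboxylase that turn mevalonate into isopentenyl diphosphate all rose. MVK, mevalonate kinase (chromosome 12, 109573255 to 109598117), had 37.4, 46.9 and 43.7 CPM in MGO and 20.8, 20.8 and 20.8 CPM in Control and a log2 fold change of 1.04 ± 0.08 (adjusted p = 1.24e-07). PMVK, phosphomevalonate kinase (chromosome 1, 154924734 to 154936991), had 34.8, 40.4 and 35.0 CPM in MGO and 17.97, 15.6 and 15.9 CPM in Control and a log2 fold change of 1.16 ± 0.08 (adjusted p = 4.98e-08). MVD, the diphosphomevalonate decarboxylase (chromosome 16, 88651935 to 88663161), had 70.4, 91.8 and 81.8 CPM in MGO and 35.3, 33.2 and 33.5 CPM in Control and a log2 fold change of 1.26 ± 0.09 (adjusted p = 4.14e-08). In each of the 3 the lowest MGO library was well above the highest Control library. MVK shares 306 nt of exon with MMAB on the other strand, which rose by 0.85 on the log2 scale.

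The last steps of the mevalonate part rose as well. IDI1, the isomerase that makes dimethylallyl diphosphate (chromosome 10, 1039152 to 1049170), had 244, 241 and 194 CPM in MGO and 98.4, 94.2 and 96.4 CPM in Control. Its log2 fold change was 1.23 ± 0.09 (adjusted p = 3.38e-08), and it stayed at 0.71 or above under library size alone and both length settings. FDPS, farnesyl diphosphate synthase (chromosome 1, 155308748 to 155320666), had 193, 216 and 198 CPM in MGO and 101, 94.0 and 97.1 CPM in Control and a log2 fold change of 1.06 ± 0.07 (adjusted p = 1.29e-08). Each of its named pseudogenes held 0.0504% of its count or less, and the overlapping RUSC1-AS1 on the other strand fell (log2 fold change -1.72).

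Stretches of 4 promoters of this group are printed to show matches to promoter boxes. None of the 4 holds a match to the core of the sterol regulatory element that is searched below. They come from RefSeq (GRCh38.p14), read 5′ to 3′ on the gene's strand, lie within the 250 bases before a start and outside any exon of the annotation used, and have in capitals each match to CCAAT, the box bound by NF-Y, or GGGCGG, the box bound by Sp1 (ATTGG and CCGCCC on the other strand). MVK and PMVK had no such stretch of 60 bases or more outside exons. The HMGCS1 stretch is chr5:43313513-43313632 (minus strand), MVD chr16:88663162-88663281 (minus), IDI1 chr10:1049171-1049290 (minus) and FDPS chr1:155308628-155308747 (plus).
HMGCS1: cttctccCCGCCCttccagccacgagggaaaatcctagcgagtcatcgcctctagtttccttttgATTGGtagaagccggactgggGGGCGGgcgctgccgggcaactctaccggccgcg
MVD: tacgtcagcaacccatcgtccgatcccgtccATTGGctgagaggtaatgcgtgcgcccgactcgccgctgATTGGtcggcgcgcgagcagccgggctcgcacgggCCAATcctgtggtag
IDI1: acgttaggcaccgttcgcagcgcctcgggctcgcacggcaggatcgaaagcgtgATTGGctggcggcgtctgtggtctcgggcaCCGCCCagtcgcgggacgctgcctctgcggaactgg
FDPS: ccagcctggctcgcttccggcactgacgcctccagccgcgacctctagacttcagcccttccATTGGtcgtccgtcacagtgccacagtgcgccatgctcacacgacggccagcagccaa
The lowered HMGCS1 and the raised IDI1 hold both boxes here, MVD holds 3 NF-Y boxes, and FDPS holds 1 NF-Y box.

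Over windows from 250 bases before to 50 after a start, 28 of the 32 members had an entry; ACAT2, FDFT1, SQLE and FASN did not. For the 9 members with several starts a match in any window counted. CCAAT was found on either strand in 20 of the 28 (71.4%) against 39.7% of all 27305 genes in the table, and GGGCGG in 27 (96.4%) against 48.3%. That background was not limited to genes with enough counts to be tested here, as nearly all members were. The core of the sterol regulatory element was searched as TCACNCCAC on both strands and found in 1 member, SREBF2 (3.57%), against 1.39% of all genes. CCAAT was in 12 of 14 raised and 6 of 10 lowered members, and GGGCGG in all 14 and all 10. Matches of different motifs may share bases. They describe these letters in this window and show neither binding nor a cause.

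In the part from squalene to cholesterol, 8 of 10 tested genes rose and SQLE and LSS, which act one after the other, fell. FDFT1, squalene synthase, had 33.8, 38.0 and 31.8 CPM in MGO and 17.98, 17.6 and 18.7 CPM in Control. It rose 1.91-fold (log2 fold change 0.93 ± 0.08, adjusted p = 1.81e-07). SQLE, the epoxidase that adds oxygen to squalene and a known control point of the route, had 67.7, 67.6 and 64.4 CPM in MGO and 85.5, 87.5 and 84.4 CPM in Control. Its fall of 1.29-fold was small but clear of the spread (log2 fold change -0.37 ± 0.06, adjusted p = 8.81e-05). LSS, the cyclase that forms lanosterol (chromosome 21, 46188141 to 46228824, minus strand), had 4.53, 5.85 and 5.26 CPM in MGO and 16.5, 18.7 and 18.6 CPM in Control. It fell 3.44-fold (log2 fold change -1.78 ± 0.10, adjusted p = 4.53e-09), the largest fall in cholesterol synthesis, and with the length trend taken out the log2 fold change was -1.25 or -1.13. The falls of SQLE and LSS were called under all 4 settings, as in 29.2% of all genes with a length.

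The tested enzymes that remodel lanosterol all rose, although CYP51A1 and SC5D were lower with library size alone. CYP51A1, the lanosterol demethylase, had 6.86, 7.78 and 7.28 CPM in MGO and between 5.84 and 6.17 CPM in the Control libraries, a small rise (log2 fold change 0.28 ± 0.08, adjusted p = 0.00632) that turned to -0.24 with library size alone. Of its 3584 exonic nt, 2943 are shared with other annotated genes on the same strand, so its counts, 5509 in all, may be only part of its reads. TM7SF2, a sterol reductase (chromosome 11, 65111845 to 65116384, plus strand), had 70.4, 86.6 and 86.1 CPM in MGO and 35.1, 33.4 and 34.0 CPM in Control, and its MGO values were 2.37-fold its Control values (log2 fold change 1.25 ± 0.08, adjusted p = 2.18e-08). VPS51, whose exons it overlaps by 16 nt on the same strand, had a log2 fold change of 0.96. MSMO1, the sterol methyl oxidase, had 64.2, 67.5 and 62.9 CPM in MGO and 38.1, 36.6 and 37.9 CPM in Control, a 1.73-fold rise (log2 fold change 0.79 ± 0.06, adjusted p = 9.24e-08). NSDHL, the next dehydrogenase, had 1 count over all 6 libraries, in MGO replicate 2; it was not tested, and its near-zero count is not read as absent expression.

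HSD17B7, the ketosteroid reductase of the route (chromosome 1, 162790702 to 162812817, plus strand), had 33.6, 39.8 and 35.8 CPM in MGO and 13.4, 13.5 and 13.6 CPM in Control. The rise of 2.701-fold was the largest of any member under TMM scaling (log2 fold change 1.43 ± 0.07, adjusted p = 2.57e-09). Its pseudogene HSD17B7P2 held a count equal to 21.7% of that of HSD17B7 and rose from 1.56 to 9.96 CPM (log2 fold change 2.68), so reads may be split between the pair and the value is uncertain. EBP, the sterol isomerase (chromosome X, 48521158 to 48528716, plus strand), had 62.6, 72.7 and 74.3 CPM in MGO and 28.3, 25.8 and 27.3 CPM in Control, a 2.58-fold rise (log2 fold change 1.37 ± 0.08, adjusted p = 5.23e-09). SC5D, the desaturase near the end of the route, had 115, 105 and 105 CPM in MGO and 91.1, 92.1 and 92.8 CPM in Control. The groups did not overlap (log2 fold change 0.23 ± 0.06, adjusted p = 0.004), but the value was -0.29 with library size alone and -0.02 with the longest-transcript trend taken out. DHCR7, the reductase that makes cholesterol from 7-dehydrocholesterol (chromosome 11, 71428193 to 71452868, minus strand), had 117, 138 and 139.6 CPM in MGO and 60.0, 66.8 and 66.8 CPM in Control. It rose 2.04-fold (log2 fold change 1.03 ± 0.08, adjusted p = 1.22e-07).

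HMGCS1, at the head of the mevalonate part, fell and FDFT1, at squalene, rose under TMM scaling, with no overlap between groups in either gene. With the median-transcript trend taken out HMGCS1 was not called, at 0.04, and FDFT1 stayed raised, at 0.74. The HMGCS1 to FDFT1 ratio was 5.24, 4.15 and 4.47 in MGO and 11.4, 12.3 and 11.4 in Control, a difference of -1.35 on the log2 scale (exact permutation p = 0.1, the smallest possible; 0.1 after adjustment over 6 ratios).

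STARD4, a soluble sterol carrier (chromosome 5, 111496033 to 111512590, minus strand), had 36.0, 31.4 and 26.6 CPM in MGO and 67.9, 72.6 and 71.2 CPM in Control. It fell 2.25-fold (log2 fold change -1.17 ± 0.09, adjusted p = 1.57e-07) with no overlap between groups, and the fall was called under all 4 settings, from -1.70 with library size alone to -0.63 with the longest-transcript trend taken out. STARD4-AS1, annotated on the other strand over its exons, fell from 6.69 to 0.797 CPM (log2 fold change -3.07). With the strand setting of the counting not given, reads of the pair cannot be told apart; the antisense gene held 7.92% of the STARD4 count.

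In fatty acid synthesis, FASN showed the largest fall of any member under TMM scaling and library size alone, though not with the length trend taken out. STARD4, LSS and INSIG2 were lower than FASN with the median-transcript trend taken out, and LSS was lower with the longest-transcript trend taken out. FASN, the synthase that builds palmitate (chromosome 17, 82078333 to 82098332, minus strand), had 166, 196 and 205 CPM in MGO and 747, 887 and 833 CPM in Control. The highest MGO library was far below the lowest Control library, and the fall was 4.35-fold (log2 fold change -2.12 ± 0.09, adjusted p = 6.23e-10). FASN transcripts are among the longest of the members, at 8486 nt, and with the length trend taken out the log2 fold change was -0.42 or -0.75. It was the 1 fatty acid synthesis gene called in the same direction under all 4 settings.

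ACLY and ACACA supply FASN with its building blocks. ACLY, the citrate lyase that makes cytosolic acetyl-CoA (chromosome 17, 41866908 to 41930542, minus strand), had 402, 418 and 393 CPM in MGO and 588, 642 and 649 CPM in Control. It fell 1.55-fold (log2 fold change -0.63 ± 0.06, adjusted p = 1.49e-06). ACACA, the carboxylase that makes malonyl-CoA, had 3.83, 4.85 and 3.80 CPM in MGO and 3.57, 4.65 and 4.94 CPM in Control, with overlapping groups and a log2 fold change of -0.08 ± 0.13 (adjusted p = 0.601). Its transcripts have a median length of 9554 nt, and it stood 1.78 or 1.46 above the trend of genes as long, whereas ACLY stood at 0.11 or -0.18 from it. The ACLY to ACACA ratio was 105.0, 86.2 and 103.2 in MGO and 165, 138 and 132 in Control, a difference of -0.56 on the log2 scale (exact permutation p = 0.1, the smallest possible; adjusted 0.1).

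SCD and ELOVL6, which modify palmitate, both fell under TMM scaling but not with the length trend taken out. SCD, the desaturase that makes monounsaturated fatty acids (chromosome 10, 100347124 to 100364834, plus strand), had 264, 261 and 249 CPM in MGO and 417, 484 and 465 CPM in Control. It fell 1.77-fold (log2 fold change -0.82 ± 0.07, adjusted p = 2.48e-07). ELOVL6, the elongase of palmitate, had 19.1, 18.4 and 19.2 CPM in MGO and 38.9, 37.9 and 37.9 CPM in Control and fell 2.03-fold (log2 fold change -1.02 ± 0.06, adjusted p = 1.01e-08). With that trend taken out the values were 0.25 and -0.05 for SCD and -0.13 and 0.01 for ELOVL6 (median and longest transcript). Of these only SCD with the median transcript was called, as raised (adjusted p = 0.00174). The SCD to FASN ratio was 1.59, 1.33 and 1.22 in MGO and 0.559, 0.545 and 0.559 in Control. The difference was 1.31 on the log2 scale (exact permutation p = 0.1, the smallest possible, and 0.1 after adjustment). Median transcript lengths are 5362 nt for SCD and 8486 nt for FASN. How much of this difference goes with length was not tested.

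FADS1 and FADS2, neighbouring genes on chromosome 11 (61799625 to 61829318 and 61792980 to 61867354), encode the desaturases of polyunsaturated fatty acids. FADS1 had 85.6, 89.9 and 88.5 CPM in MGO and 98.4, 108 and 107 CPM in Control, a small fall (log2 fold change -0.25 ± 0.06, adjusted p = 0.0029). FADS2 had 188, 229 and 215 CPM in MGO and 146, 158 and 158 CPM in Control, a small rise (log2 fold change 0.45 ± 0.08, adjusted p = 0.000163). Neither gene overlapped between groups, and the FADS1 to FADS2 ratio was 0.456, 0.393 and 0.412 in MGO and 0.673, 0.683 and 0.676 in Control, a difference of -0.69 on the log2 scale (exact permutation p = 0.1, the smallest possible; adjusted 0.1). The FADS1 fall was -0.07 (adjusted p = 0.291) with upper quartile scaling and turned to 0.27 with the longest-transcript trend taken out, and FADS2 lost its call with library size alone (-0.08) and with the median-transcript trend taken out (0.12, adjusted p = 0.125). The genes share 490 nt of exon on opposite strands, and FEN1, which overlaps FADS2, rose by 1.17 on the log2 scale.

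LPIN1, a phosphatidate phosphatase of triglyceride synthesis and a known SREBP target (chromosome 2, 11677595 to 11827409, plus strand), had 24.8, 20.1 and 20.7 CPM in MGO and 40.9, 45.8 and 45.8 CPM in Control. It fell 2.02-fold (log2 fold change -1.01 ± 0.09, adjusted p = 2.76e-07) without overlap, and with the length trend taken out the value was 0.06 or -0.16.

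The order of the members followed transcript length. Across the 31 tested members the log2 fold change fell with log2 transcript length (Pearson r = -0.63, Spearman rho = -0.61), as it did across 21734 tested genes with a length (r = -0.28, rho = -0.37); these are descriptions across genes that share the same 6 libraries. The median transcript was 1987 nt in cholesterol synthesis and 4772 nt in fatty acid synthesis. Within cholesterol synthesis r was -0.58 over 17 genes. Several members nonetheless lay far from genes of their own length. Relative to the median-transcript trend IDI1 and ACAT2 stood at 1.42 and 1.39, and LSS and STARD4 at -1.25 and -1.59. For the longest transcript the values were 1.34 and 1.09, and -1.13 and -0.63. The distance of STARD4 thus depends on the length chosen, 1467 nt (median) or 4606 nt (longest).

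**Figure D2:**
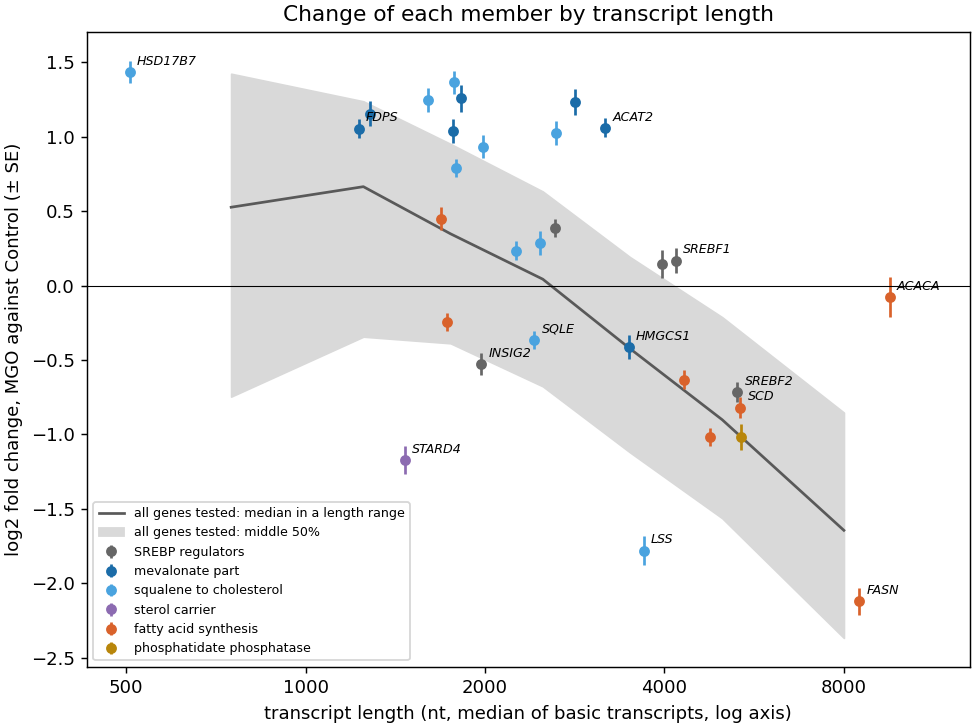
Log2 fold change (± SE) of each tested member against the median length of its transcripts in nt on a log axis. The line and the grey band are the median and the middle 50% of all tested genes in 7 length ranges. Colours mark the gene groups. FASN and SCD lie in or near the band of long genes, ACAT2, IDI1, DHCR7 and EBP above the band, and LSS and STARD4 below it.

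Taking TMM, library size alone and both length settings together, 12 members were called as raised and 5 as lowered in all 4. All 12 raised genes belong to cholesterol synthesis (ACAT2, MVK, PMVK, MVD, IDI1, FDPS, FDFT1, TM7SF2, MSMO1, HSD17B7, EBP and DHCR7), which is 70.6% of its tested genes, against 24.5% of 21734 genes. The 5 lowered genes were INSIG2, SQLE, LSS, STARD4 and FASN, which is 16.1% of members against 29.2% of all genes. As a share of members the 12 raised genes are 38.7%. In either direction 54.8% of members were called under all 4 settings, close to the 53.8% of all genes with a length. The split of calls moved with the setting, from 16 raised and 12 lowered under TMM to 12 and 17 with library size alone, 20 and 6 with the median-transcript trend and 19 and 8 with the longest-transcript trend taken out.

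**Figure D3:**
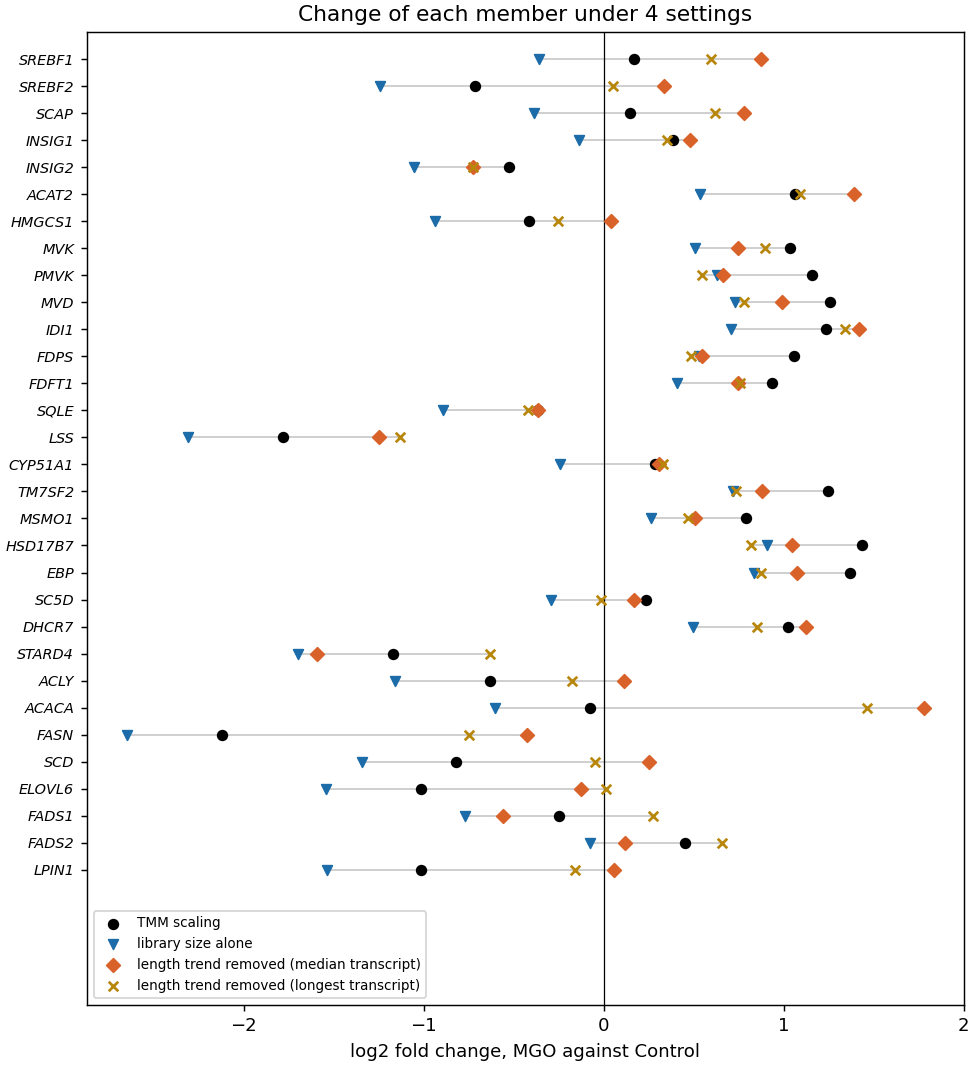
Log2 fold change of each tested member under 4 settings: TMM scaling (black circles), library size alone (blue triangles), and the transcript length trend taken out for the median (orange diamonds) or longest transcript (brown crosses). Symbols of the 12 genes raised under all settings stay right of 0, those of FASN, LSS, SQLE, STARD4 and INSIG2 stay left of it, and ACACA spans from -0.61 to 1.78.

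Per kb of transcript, the order of levels changed between groups. In Control the highest members were ACLY at 145, FASN at 96.9, FADS2 at 91.2, SCD at 84.9 and FDPS at 79.2 CPM per kb. FASN, FADS2 and SCD lay within about 1 SD of their neighbour in this order, with SDs of 8.35, 3.96 and 6.39. In MGO the order was FDPS at 165, FADS2 at 125, ACLY at 93.8, ACAT2 at 85.0 and IDI1 at 79.9 CPM per kb, and FASN had gone from rank 2 to rank 20 at 22.3. IDI1, with an SD of 9.85, did not stand apart from ACAT2. LSS, CYP51A1 and ACACA were the lowest tested members in MGO, at 1.41, 2.96 and 0.435 CPM per kb. With the longest transcript as the length, FDPS stayed at rank 1 in MGO and FASN went from rank 2 to 18. FADS2 then stood at rank 6 in Control and rank 5 in MGO, so its place depends on the length chosen.

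**Figure D4:**
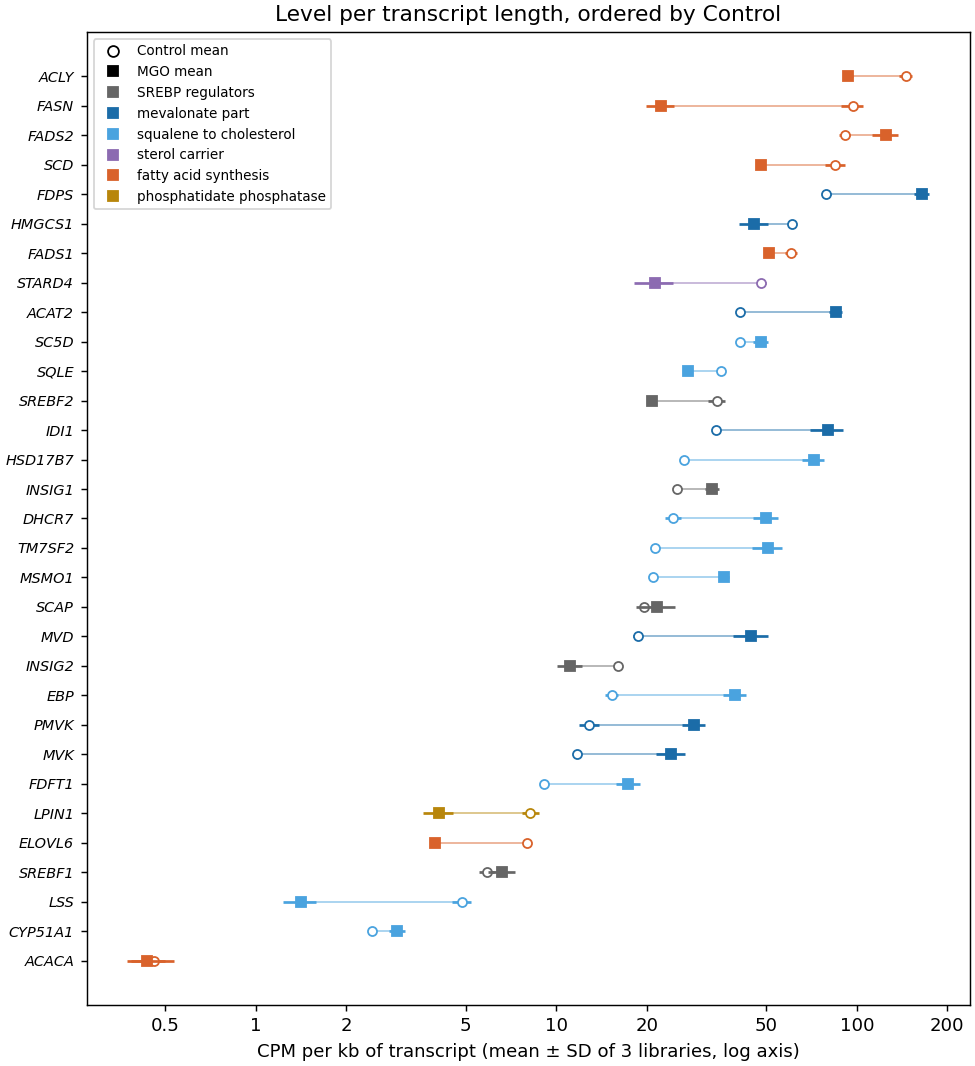
Mean level (± SD, n = 3) of each tested member per kb of median transcript on a log axis, ordered by Control; open circles are Control, filled squares MGO, and colours mark the gene groups. FASN moved from 96.9 to 22.3 CPM per kb and FDPS from 79.2 to 165 CPM per kb.

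Other genes of the pathway were read from 6 lists, and changes are given from the Control mean to the MGO mean. Among the named list genes PDSS2 had the highest adjusted p, 0.000801. In SREBP processing and turnover 5 of 10 tested genes rose and 5 fell, and the median log2 fold change was -0.16. Over all tested genes 38.8% rose and 40.5% fell, which is the background for each list. The median was -0.68 with library size alone, 0.25 with the median-transcript trend and 0.04 with the longest-transcript trend taken out. AUP1, which helps degrade sterol-regulated proteins at the endoplasmic reticulum, went from 110.1 ± 6.18 CPM to 304 ± 15.8 CPM (SD, n = 3, log2 fold change 1.47) and FBXW7, the ubiquitin ligase subunit that marks nuclear SREBPs, from 20.1 ± 0.114 CPM to 41.7 ± 2.92 CPM (1.05). ERLIN2, a membrane protein of the endoplasmic reticulum that binds the SCAP and INSIG complex, and MBTPS2, the protease of the final SREBP cleavage, fell by 1.41 and 1.39 on the log2 scale. These 4 kept their call with library size alone and with the median-transcript trend taken out, where MBTPS2 was at -0.60.

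In sterol sensing, efflux and storage 9 of 15 genes rose and 5 fell (median 0.41), while with library size alone 3 rose and 7 fell (median -0.12). NPC2, a lysosomal cholesterol carrier, went from 61.4 ± 3.13 CPM to 182 ± 14.3 CPM (log2 fold change 1.57), and MYLIP, a ligase that degrades lipoprotein receptors, from 22.9 ± 0.889 CPM to 56.6 ± 3.32 CPM (1.30). GRAMD1B, a sterol transfer protein, and SOAT1, which esterifies cholesterol for storage, fell by 1.02 and 0.97 on the log2 scale, but with the length trend taken out SOAT1 was at 0.44 (median) or 0.14 (longest transcript) and GRAMD1B at 0.23 for the longest transcript. In the isoprenoid branch, which uses farnesyl diphosphate for prenylation, dolichol and ubiquinone, 6 of 11 tested genes rose and 3 fell (median 0.28), while with library size alone 4 rose and 6 fell (median -0.25). RABGGTB, the catalytic subunit of Rab prenyl transferase, went from 66.9 ± 4.15 CPM to 221 ± 13.1 CPM (1.72) and PDSS1, of the ubiquinone side-chain synthase, from 19.1 ± 0.777 CPM to 57.8 ± 1.78 CPM (1.59). NUS1, of dolichol synthesis, and PDSS2, the partner of PDSS1, fell by 0.81 and 0.30 on the log2 scale; NUS1 was at 0.05 with the median-transcript trend taken out, and PDSS2 lost its call at -0.13 when the longest-transcript trend was taken out (adjusted p = 0.0583) or upper quartiles were used for scaling (adjusted p = 0.0883).

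In fatty acid activation, elongation and desaturation 6 of 21 genes rose and 13 fell (median -0.33), against 38.8% raised and 40.5% lowered over all genes. With library size alone the median was -0.86 and with the length trend taken out -0.17 or -0.18. ELOVL1, an elongase of very long chains, and TECR, the reductase of the elongation cycle, rose by 1.49 and 1.47 on the log2 scale. ACSL4, which activates polyunsaturated fatty acids, went from 73.8 ± 1.69 CPM to 10.3 ± 1.56 CPM (log2 fold change -2.85), and ACACB, the carboxylase at mitochondria, from 18.7 ± 0.309 CPM to 4.78 ± 0.187 CPM (-1.96). With the median-transcript trend taken out ACSL4 remained at -1.82, and ACACB was at -0.17.

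In glycerolipid and phospholipid synthesis 6 of 14 tested genes rose and 6 fell (median -0.02), against the same background, and with the length trend taken out the median was 0.20 or 0.07. AGPAT2 and DGAT2, acyltransferases of triglyceride synthesis, rose by 1.48 and 0.997 on the log2 scale, and GPAM and AGPAT3, acyltransferases of the steps that lead to phosphatidate, fell by 1.91 and 1.58; with the median-transcript trend taken out GPAM was at -0.68 and AGPAT3 at -0.95. In fatty acid oxidation 7 of 13 genes rose and 4 fell (median 0.26). ECI1, an isomerase of mitochondrial oxidation, and ACADS, the short-chain dehydrogenase, rose by 1.55 and 1.16, while PPARA, a nuclear receptor that drives oxidation genes, and CPT1B, a carnitine transferase, fell by 2.39 and 1.91. With the median-transcript trend taken out PPARA, whose transcripts have a median length of 9965 nt, was at -0.49 and CPT1B at -1.83. With library size alone the medians of both lists were below 0, at -0.55 and -0.27.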

How the data were processed

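The authors deposited unnormalised read counts per gene for 6 libraries in 1 table. The tools in the submitters' processing notes are STAR 2.7.0a, featureCounts 2.0.6, Trim Galore 0.6.10, DESeq2 1.42.0, FastQC 0.12.0 and SAMtools 1.19.2, with build hg38. Annotation, strand setting and the handling of reads that map to several loci were not given in the sources used here. Total counts were 117427883 to 157639431 per library. Within groups, every pair of libraries exceeded sampling noise (chi-square over degrees of freedom of at least 3.78). Replicate 1 stood apart in both groups. Its pairs with replicates 2 and 3 were at 47.3 and 52.4 in MGO and at 31.5 and 23.6 in Control. Replicates 2 and 3 differed by 15.8 in MGO and 3.78 in Control.

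The test was edgeR 4.0.16 in R 4.3.3 (filterByExpr, TMM, quasi-likelihood test, Benjamini-Hochberg adjustment over 23109 genes, threshold 0.05). The SE is the log2 fold change over the root of F. The script was tested on simulated data. Alternatives were other scalings and filters, DESeq2 1.42.0, a replicate block, leaving out each library, and a trend over transcript length taken out. Transcript lengths and coordinates came from GENCODE 29 (GRCh38), which 56685 of 63643 rows and all 32 members matched. Named are all members, the 2 largest rises and falls past the threshold at a mean of at least 1 CPM in each pathway list, GLO1, and antisense, overlapping or pseudogene neighbours chosen after their values were seen. Members and lists were chosen with earlier results of these data known.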

Additional observations from a re-analysis of the deposited data

How the results depend on the processing

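No member changed its call with size factors by relative log expression, with no filter on low counts, with DESeq2 or with the replicate block; counts in the pathway lists moved by at most 2 genes there (sterol sensing raised 9, with DESeq2 7). With library size alone 5673 genes were raised, and 22 of the pathway list genes; 0 regulators rose and 4 fell, 5 cholesterol synthesis genes fell and 0 fatty acid synthesis genes rose. Signs then turned for SREBF1 (-0.36), SCAP (-0.385), INSIG1 (-0.14), CYP51A1 (-0.24), SC5D (-0.29), FADS2 (-0.079) and the medians of regulators (-0.385), all members (-0.29), sterol sensing (-0.12), the isoprenoid branch (-0.25) and fatty acid oxidation (-0.27). With upper quartile scaling 3 regulators rose, and the medians of SREBP processing (0.015) and glycerolipid synthesis (0.15) turned. With the median-transcript length trend taken out 6 members fell, 4 regulators rose and 1 fell, and 2 fatty acid synthesis genes rose and 2 fell. Signs turned for SREBF2 (0.33), HMGCS1 (0.039), ACLY (0.11), ACACA (1.78), SCD (0.25), LPIN1 (0.056), SOAT1 (0.44), NUS1 (0.048) and the medians of fatty acid synthesis (0.11), SREBP processing (0.25) and glycerolipid synthesis (0.20). With the longest-transcript trend, chosen after seeing the data, 3 regulators rose and 1 fell, and 3 fatty acid synthesis genes rose and 2 fell. Signs turned for SREBF2 (0.053), SC5D (-0.017), ACACA (1.46), ELOVL6 (0.013), FADS1 (0.27), SOAT1 (0.14), GRAMD1B (0.23) and the medians of fatty acid synthesis (0.013), SREBP processing (0.04) and glycerolipid synthesis (0.07). Why these differ was not tested.

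Leaving out 1 library at a time gave 1 to 3 raised regulators, with 3 only without MGO replicate 1. Replicate numbers did not pair the libraries (correlations of same-numbered deviations 0.0407, 0.0184 and 0.0127), and with the replicate block 16 members rose and 12 fell, as without it, while pathway list genes called as raised went from 39 to 38. NSDHL had too few counts to be tested.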
